A study of Mus musculus with 6 samples.

Results

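The genes described here are Pml, the Sp100 family (Sp100, Sp110 and Sp140), Daxx, Atrx, Ifi35 and Nmi, 8 of the 26012 genes listed, chosen by symbol as genes of the Pml nuclear body and related interferon-induced nuclear genes. All 8 symbols were found, each on 1 row, and all 8 passed the filter on low values. RNA was sequenced from ventricles of male C57BL/6 mice, 8 weeks of age, whose left anterior descending coronary artery was ligated to cause myocardial infarction (MI). In 3 hearts the muscle was injected with control mimic. The other 3 hearts received miR-19a/19b mimics, 10 μg per heart in both groups, and all 6 were harvested 4 days after MI. Both groups therefore share the ligation and the injection, and no heart without infarction was compared. Mimics are short double-stranded RNAs that supply a cell with the mature miRNA. They were injected around the infarct, and the sequenced tissue holds every cell type of the ventricle.

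Pml nuclear bodies are spherical structures in the nucleus that are built on the PML protein, a member of the TRIM family. PML becomes joined to the small protein SUMO, and other proteins, among them SP100 and DAXX, gather on it through SUMO. Interferons induce the transcription of Pml and of the Sp100 family, and the bodies act in the defence against DNA viruses, in chromatin regulation and in cell death. Ifi35 and Nmi encode interferon-induced proteins that bind each other. They are included as interferon genes and are not scaffold proteins of the bodies.

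The mimics carry the sequences of miR-19a and miR-19b, which are shown because their seed, bases 2 to 8 in capitals, sets which messages they can pair with. The mature mouse sequences below are from RefSeq (GRCm38.p6), miR-19a at chr14:115044048-115044070 and miR-19b at chr14:115044358-115044380, both on the plus strand, the second with a copy at chrX:52741991-52742013 on the minus strand. They have the same seed and differ at 1 base (U11C, the miR-19a base first, counted from the 5′ end).
miR-19a-3p: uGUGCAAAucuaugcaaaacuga
miR-19b-3p: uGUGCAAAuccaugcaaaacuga

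The seed match TTTGCAC, or its 7-base form TTGCACA with an A opposite the first base of the miRNA, was looked for in the longest annotated 3′ UTR of a coding transcript. Of the 8 genes, Atrx alone had a match, and it had 2, both TTTGCAC without the flanking A, in a 3′ UTR of 2560 bases. Of the 15821 tested genes with such a 3′ UTR, 18.4% had at least 1 match. The sites in Atrx are shown with the match in capitals, because they are the only such matches found for these 8 genes. Parts of the messages outside the 3′ UTR were not searched. The first starts at base 2 of the 3′ UTR (chrX:105800160-105800174, minus strand) and the second at base 1050 (chrX:105799112-105799140, minus strand), both in transcript Atrx-202 of GENCODE M21 (GRCm38).
Atrx site at base 2: tTTTGCACtaaaagt
Atrx site at base 1050: gcatctctgctcttcTTTGCACtcgtcac
In Atrx, 2 of 3 coding transcripts with a 3′ UTR held a match. In Pml, 0 of 6 did, and the other 6 genes had 0 as well. No match says only that these letters are not in the annotated 3′ UTRs.

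The libraries held between 19398196 and 23645308 reads on genes. Values are normalized counts, which are reads divided by a size factor of the library (0.905 to 1.16). For the comparison of groups, limma was fitted to log2(normalized count + 1) of 21126 genes, those averaging 1 or more, with Benjamini and Hochberg adjustment across all 21126. All differences below are log2 values, miR-19a/19b mimic minus control mimic, with their standard error (SE). Marker genes of cardiomyocytes were abundant in all 6 hearts. Their summed normalized counts were 257600 in miR-19a/19b mimic replicate 3 and between 421400 and 754400 in the other 5 hearts, and the macrophage and neutrophil sums were highest in that same heart. The sum of skeletal muscle genes was 2294 for miR-19a/19b mimic replicate 1, whereas no other heart exceeded 58.78. Each of these 2 hearts is therefore left out in turn where it changes a result.

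In miR-19a/19b mimic hearts, the normalized counts of all 8 genes had lower means than in control mimic hearts, with log2 differences from -0.51 for Sp140 to -0.06 for Atrx and a median of -0.39. The median over all genes tested was 0.00. At an adjusted p-value under 0.05, limma called 0 of the 8 genes and 0.0% of all genes tested. At an unadjusted p-value under 0.05, 6 of the 8 were lower (Pml, Sp100, Sp110, Sp140, Daxx and Ifi35) and 0 were higher, where 2.63% of all genes tested were lower. The edgeR quasi-likelihood test and DESeq2 on the reads recovered from the values also called 0 of the 8 at the adjusted threshold, where DESeq2 called 0.198% of the 14154 genes with an adjusted p-value lower. At the unadjusted threshold edgeR had 6 of the 8 lower, against 2.47% of all genes, and DESeq2 had 5, against 1.9%. The miR-19a/19b mimic hearts were all below the control mimic hearts for 5 of the 8 genes (Sp100, Sp110, Sp140, Daxx and Ifi35), where this was so for 5.3% of all genes tested. The 8 genes were chosen with earlier results of these data known. Their counts beside the shares of all genes are therefore descriptive and not an independent test. The study measured Pml, Sp100 and Ifi35 again by qRT-PCR as down-regulated genes of these libraries, so their direction is not independent of that choice.

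**Figure D1:**
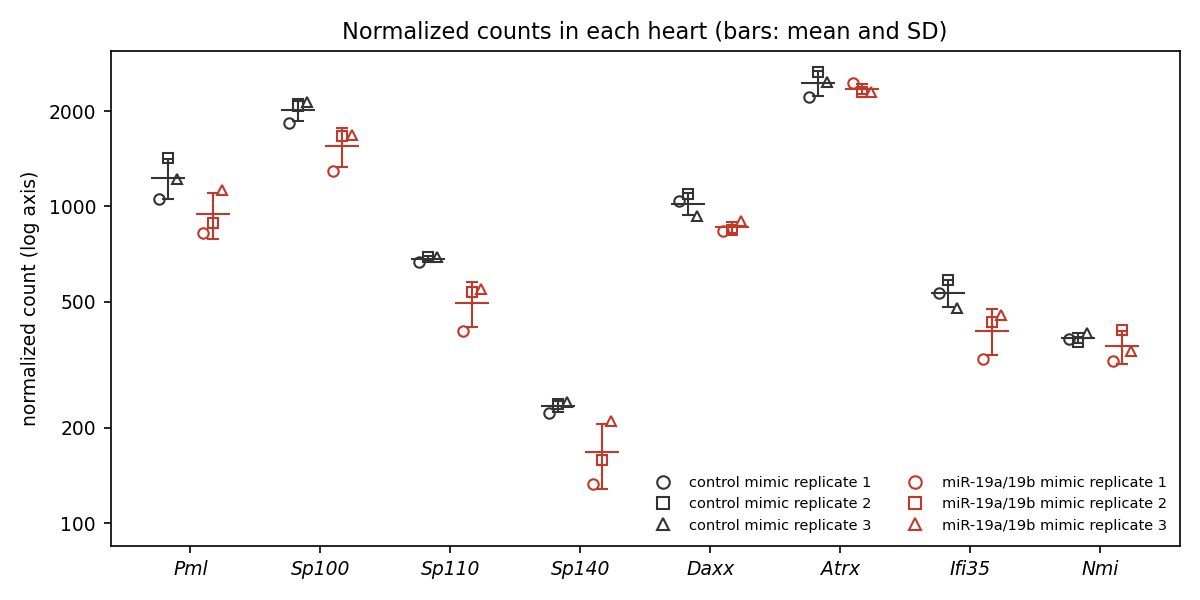
Normalized counts (log axis) of the 8 genes in each of the 6 hearts, with the mean and SD of each group of 3 hearts as bars. For Sp100, Sp110, Sp140, Daxx and Ifi35 every miR-19a/19b mimic heart lies below every control mimic heart, and miR-19a/19b mimic replicate 1 is the lowest heart for 7 of the 8 genes.

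Pml (ENSMUSG00000036986), on chromosome 9 from 58218076 to 58249786, encodes the scaffold protein of the bodies. Its normalized counts were 1058, 1418 and 1225 in the control mimic hearts and 825.2, 886.6 and 1127 in the miR-19a/19b mimic hearts. The groups overlapped, because miR-19a/19b mimic replicate 3 was above control mimic replicate 1. The means were 1234 ± 180 and 946 ± 160 (SD, n = 3 each), 23.3% less in miR-19a/19b mimic hearts. The log2 difference was -0.38 (SE 0.15, limma adjusted p = 1.0), with a 95% interval from -0.73 to -0.04.

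Sp100 (ENSMUSG00000026222), on chromosome 1 from 85649988 to 85709998, encodes the autoantigen by which the bodies were first recognised. It had 1840, 2081 and 2136 normalized counts in control mimic hearts and 1296, 1671 and 1686 in miR-19a/19b mimic hearts. No miR-19a/19b mimic heart reached the lowest control mimic heart. The log2 difference was -0.39 (SE 0.13, limma adjusted p = 1.0), with 23.2% less in the miR-19a/19b mimic hearts.

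Sp110 (ENSMUSG00000070034), its neighbour on chromosome 1 from 85576899 to 85598817, has been proposed in mice as a gene of resistance to intracellular bacteria, a role not examined here. Control mimic hearts had 669.8, 691.9 and 692.3 normalized counts and miR-19a/19b mimic hearts 403.5, 535.1 and 548.1. The control mimic hearts had a coefficient of variation of 1.88%, while that of the miR-19a/19b mimic hearts was 16.1%. Its log2 difference of -0.48 (SE 0.13, limma adjusted p = 0.948) had the smallest p-value of the 8 genes, and the 95% interval ran from -0.78 to -0.18.

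Sp140 (ENSMUSG00000070031), on chromosome 1 from 85600378 to 85645037, encodes a chromatin reader of leukocytes. It was counted at 223.3, 238.1 and 241.0 in control mimic hearts and at 133.4, 158.8 and 210.1 in miR-19a/19b mimic hearts. All 3 miR-19a/19b mimic hearts were lower, replicate 3 by a small margin. The log2 difference was -0.51 (SE 0.17, limma adjusted p = 1.0). It rests on the fewest reads of the 8 genes, from 124 to 258 per heart.

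Daxx (ENSMUSG00000002307), on chromosome 17 from 33909414 to 33915589, encodes a histone H3.3 chaperone that binds SUMO on PML. Its normalized counts were 1040, 1092 and 929.6 in control mimic hearts and 838.1, 844.4 and 897.3 in miR-19a/19b mimic hearts. The groups did not overlap, though the highest miR-19a/19b mimic heart came close to the lowest control mimic heart. The log2 difference was -0.24 (SE 0.10, limma adjusted p = 1.0).

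Atrx (ENSMUSG00000031229), on chromosome X from 105797615 to 105929403, encodes the chromatin remodeller that works with DAXX. Control mimic hearts had 2223, 2661 and 2471 normalized counts and miR-19a/19b mimic hearts 2449, 2298 and 2291. The lowest of the 6 hearts was a control mimic heart, and the groups overlapped. The log2 difference of -0.06 (SE 0.11, limma adjusted p = 1.0) had a 95% interval from -0.30 to 0.18, which holds both 0 and the value of Daxx. Atrx, the gene with both seed matches, had the smallest difference of the 8. Whether the mimics acted on these sites was not tested.

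Ifi35 (ENSMUSG00000010358), on chromosome 11 from 101448407 to 101458698, had 534.9, 584.6 and 479.3 normalized counts in control mimic hearts. In miR-19a/19b mimic hearts it had 329.2, 433.0 and 455.6, each below every control mimic heart. The log2 difference was -0.40 (SE 0.15, limma adjusted p = 1.0). Nmi (ENSMUSG00000026946), on chromosome 2 from 51948487 to 51973494, encodes the binding partner of this protein. Its normalized counts were 382.4, 373.8 and 399.9 in control mimic hearts and 324.9, 408.3 and 351.0 in miR-19a/19b mimic hearts. Here the highest of the 6 hearts was a miR-19a/19b mimic heart, and the log2 difference was -0.10 (SE 0.12, limma adjusted p = 1.0, 95% interval from -0.37 to 0.17). Within a heart, the ratio of Ifi35 to Nmi in normalized counts was 1.40, 1.56 and 1.20 in the control group, against 1.01, 1.06 and 1.30 after miR-19a/19b mimics. These ratios overlapped between the groups, so the partners were not shown to differ in their response.

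**Figure D2:**
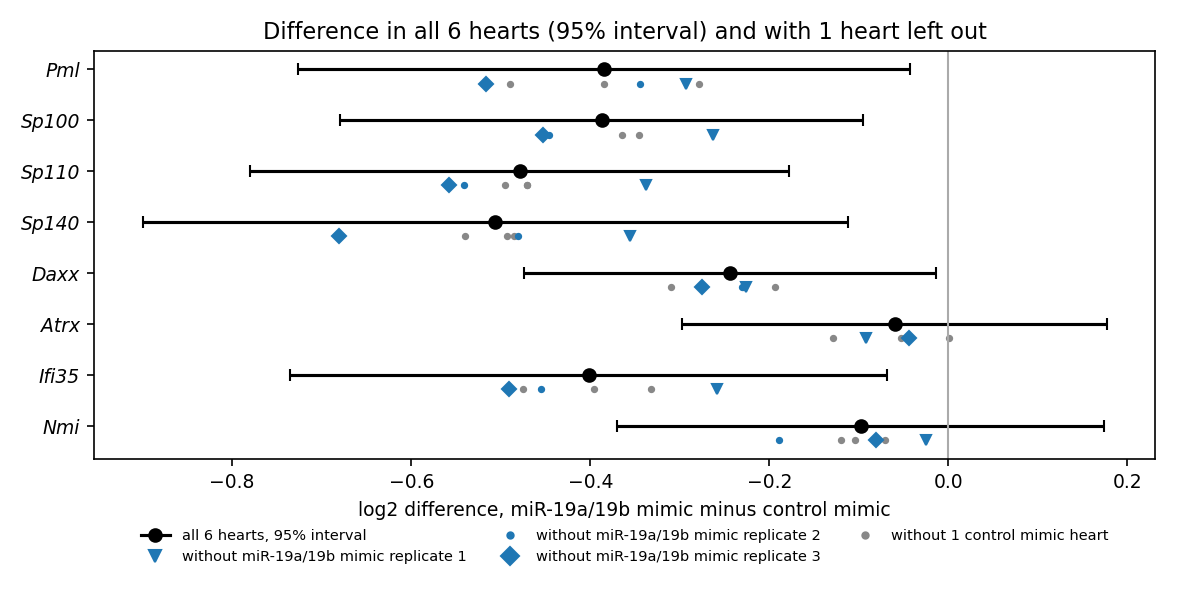
Log2 difference (miR-19a/19b mimic minus control mimic) of each of the 8 genes, with the limma 95% interval over all 6 hearts in black and, under it, the values with 1 heart left out. The intervals of Atrx and Nmi include 0, and leaving out miR-19a/19b mimic replicate 1 or 3 moves the values of Pml, the Sp100 family and Ifi35 in opposite directions.

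The hearts within the miR-19a/19b mimic group differed. Averaged over the 8 genes, log2 values relative to the control mean were -0.50, -0.28 and -0.19 in replicates 1, 2 and 3, against -0.07, 0.08 and -0.01 in the control mimic hearts. Averaged over the Sp100 family they were -0.74, -0.40 and -0.24, against -0.08 to 0.05. Replicate 1 was the lowest of all hearts for 7 of the 8 genes, the exception being Atrx. Without replicate 1, 1 of the 8 genes (Sp110) kept an unadjusted limma p-value under 0.05, where 2.44% of all genes tested were lower, and 0 passed the adjusted threshold. Without replicate 3, limma called 3 of the 8 lower at an adjusted p-value under 0.05, where 0.774% of all genes tested were called lower. These were Sp140 (log2 difference -0.68, adjusted p = 0.0329), Sp110 (-0.56, adjusted p = 0.041) and Pml (-0.52, adjusted p = 0.0498). In the same comparison 6 of the 8 were lower at an unadjusted p-value under 0.05, against 6.08% of all genes tested. Leaving out control mimic replicate 2, control mimic replicate 3 or miR-19a/19b mimic replicate 2 left 3 of the 8 at that threshold, where 1.75%, 2.1% and 1.96% of all genes tested were lower. Over all alternatives, the adjusted p-values of these 3 genes ranged up to 1.0.

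Some markers of white blood cells were lower too, and fewer cells of a type and less RNA per cell cannot be told apart in whole tissue. Of 6 T cell markers all had lower means, 2 at an unadjusted limma p-value under 0.05 (Lck and Cd8a). Their summed normalized counts were between 199.0 and 286.9 in control mimic hearts and between 150.5 and 174.6 in miR-19a/19b mimic hearts. Single markers had low counts, with control mimic means of 18.4 for Cd3e and 91.2 for Cd4. The groups of Cd4, Cd3d and Cd3g overlapped, and those of Cd3e, Cd8a and Lck did not. Of 6 macrophage and monocyte markers, 5 had lower means and 2 an unadjusted p-value under 0.05 (Ly6c2, a marker of inflammatory monocytes, and Ccr2, their chemokine receptor). The sums of this list overlapped, from 53320 to 61000 and from 41580 to 66880, and so did those of the neutrophil list, from 1525 to 1838 and from 735.9 to 2389, with 1 of its 6 genes (Retnlg) at that threshold. In miR-19a/19b mimic replicates 1, 2 and 3 the macrophage and monocyte sums were 41580, 49370 and 66880, in the same order of hearts as the means of the 8 genes. The neutrophil sums (735.9, 1297 and 2389) and B cell sums (113.0, 120.6 and 227.3) had this order too. The cardiomyocyte sums had the reverse order (754400, 661800 and 257600), and the T cell, endothelial, fibroblast and erythrocyte sums had neither. The order of these hearts therefore does not single out a cell type. In replicate 3 the macrophage and monocyte sum, mostly Lyz2 (48250), and the neutrophil sum were the highest of all 6 hearts. The macrophage markers did not move together in that heart. Lyz2 and Cd68 (6125) were above every control mimic heart, and Adgre1 and Csf1r lay within the control range. Ccr2 (1942) and Ly6c2 (176.3) were below every control mimic heart, as were Sp100, Sp110, Sp140, Daxx and Ifi35. The B cell, endothelial, fibroblast, erythrocyte and cardiomyocyte sums overlapped as well, with 0 of their genes at that threshold. The part of these cells in the lower levels was not tested.

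Levels were compared between genes per kilobase (kb) of exon. In control mimic hearts Daxx was highest, with 334 ± 27.1 normalized counts per kb (SD, n = 3), followed by Ifi35 with 309 ± 30.5, Sp100 with 267 ± 20.8, Pml with 221 ± 32.4 and Nmi with 193 ± 6.64. Neighbours in this part of the order overlapped between hearts and cannot be ranked. Atrx (113 ± 10.1), Sp110 (101 ± 1.90) and Sp140 (70.4 ± 2.87) followed, each below every heart of the gene before it. In miR-19a/19b mimic hearts the order was the same except that Nmi (181 ± 21.3) was above Pml (170 ± 28.7). The lengths are those deposited with the counts, from 1727 bases for Ifi35 to 21757 for Atrx, and a length that counts little-used exons lowers the level on this scale.

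**Figure D3:**
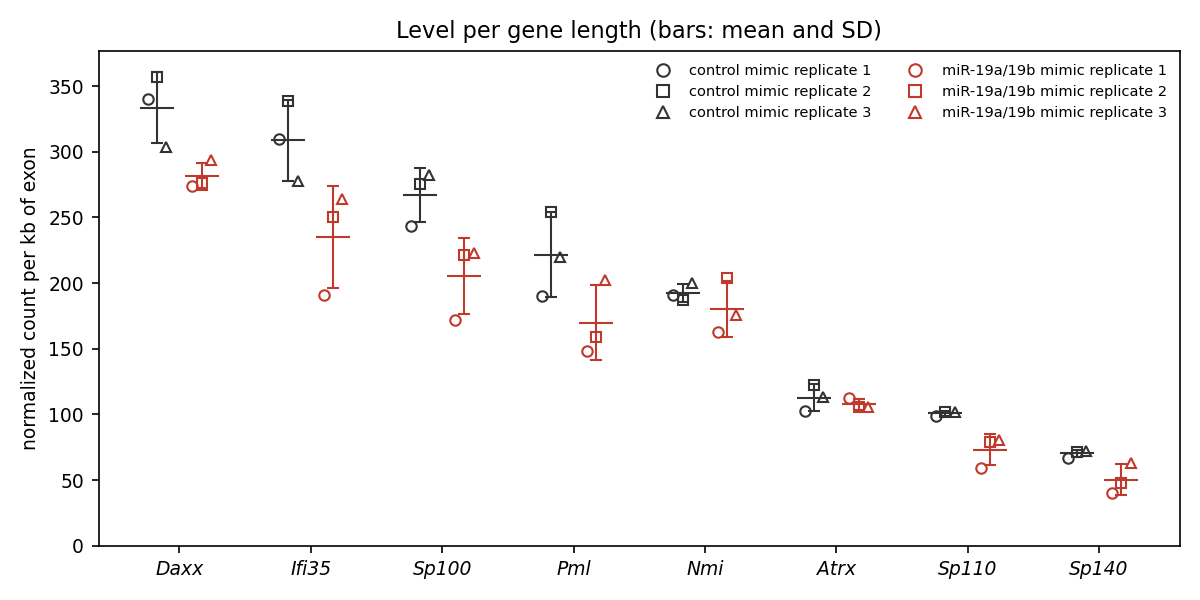
Normalized counts per kb of exon of the 8 genes in each heart, in the order of the control mimic mean, with group means and SD as bars. Daxx, Ifi35, Sp100, Pml and Nmi form an overlapping series, and Atrx, Sp110 and Sp140 lie below it.

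Sp100, Sp110 and Sp140 lie beside each other within a region of chromosome 1 that holds many partial copies of them, so their counts are uncertain where reads fit more than 1 copy. Transcripts of Sp100 align over 399 bases at 99.0% identity to Gm7609, those of Sp110 over 2609 bases at 97.6% to Gm16026, and those of Sp140 over 1236 bases at 98.5% to an annotated transcript of Arhgef12. The first 2 of these copies have mean normalized counts of 14.84 and 2.48. Arhgef12 has 5896 and a log2 difference of -0.06 (SE 0.21). A530040E14Rik, an antisense gene that aligns over 275 bases to Sp110 (98.5%) and over 166 bases, all identical, to Sp140, had means of 60.5 ± 3.12 and 35.1 ± 9.20 (SD, n = 3 each). Its log2 difference of -0.80 (SE 0.25) was past the unadjusted limma threshold, as that of none of the other copies named here was. Gm17017 overlaps 877 exon bases of Sp140 on the other strand (11.38 normalized counts), and Gm11626 overlaps 290 of Ifi35 (0.65). Of the 15 other genes listed within 300 kb of the 3 genes, 12 were tested. In that group 9 had means below those of control mimic hearts, 0 had an unadjusted p-value under 0.05 and the median log2 difference was -0.21. The smallest p-values were those of the pseudogenes Gm7592 (log2 difference -0.87, SE 0.53) and Gm16026 (-0.81, SE 0.50). The ratio of Sp110 to Sp100 was 0.364, 0.333 and 0.324 in control mimic hearts and 0.311, 0.320 and 0.325 in miR-19a/19b mimic hearts, which overlap.

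Promoters of the 8 genes were read from RefSeq (GRCm38.p6), 250 bases before to 50 after each start site, 12 in all, since interferon-induced genes are switched on through binding sites of STAT and IRF factors. The core of the interferon-stimulated response element, 2 copies of GAAA with any 2 bases between them, on either strand, was in 0 of the 12 and in 3.44% of all 32841 promoters in the table. The GAS element TTCNNNGAA was in 1, that of Ifi35, and in 8.3% of all. The shorter IRF core AANNGAAA, which is part of the first motif, was on either strand in 6 of the 12 promoters (both of Sp100, 1 of the 2 of Sp110, and those of Pml, Ifi35 and Nmi) and in 23.9% of all promoters. The 2 promoters of Sp100 overlap and hold the same matches, and the 3 of Daxx overlap too, so the 12 are not separate stretches. Sp100 and Sp110 each had 2 matches in a promoter, as had 5.34% of all promoters. The windows before a start site are shown on the strand of the gene, with the IRF core in capitals (read on the opposite strand in Pml and Sp100), because Pml and Sp100 had an unadjusted limma p-value under 0.05 and Nmi had not. They are at chr9:58249839-58249874 for Pml (minus strand), chr1:85649927-85649962 for Sp100 (plus strand) and chr2:51973361-51973396 for Nmi (minus strand). In the Sp100 window only the first of the 2 matches is marked. The second, TTTCTTTT, starts at the last capital letter and continues in lower case.
Pml: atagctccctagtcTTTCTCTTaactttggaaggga
Sp100: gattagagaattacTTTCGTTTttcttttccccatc
Nmi: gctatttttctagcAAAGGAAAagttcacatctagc
Sp140, Daxx and Atrx had 0 matches to all 3 motifs. A match describes the letters and not a bound site.

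Genes upstream in interferon signalling were lower in part. Of 20 genes of this list, 19 were tested, with a median log2 difference of -0.15. Of these, 15 had lower means, 5 at an unadjusted limma p-value under 0.05, and 0 were higher at that threshold or passed the adjusted one. The smallest p-values were those of Irf7, which drives the transcription of interferon genes, and Stat2, which carries the signal of type I interferon to its target genes. Irf7 had 4886, 6030 and 4175 normalized counts in control mimic hearts and 2764, 3626 and 2674 in miR-19a/19b mimic hearts, and its log2 difference was -0.73 (SE 0.17, limma adjusted p = 0.806). For Stat2 the counts were 1850, 2204 and 2028 against 1102, 1438 and 1523, with a log2 difference of -0.59 (SE 0.14, limma adjusted p = 0.815). For both genes the groups did not overlap. Of the 4 receptor genes, Ifnar1 (-0.02) and Ifngr2 (0.03) had log2 differences near 0, and Ifnar2 had -0.16 (SE 0.12). Ifngr1 had -0.21 (SE 0.10), and its groups did not overlap, lower in miR-19a/19b mimic hearts. The interferon genes themselves were hardly detected, Ifng with at most 2.06 normalized counts in a heart, and Ifnb1 with 5.86 in control mimic replicate 2 and 0 in the other 5.

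**Figure D4:**
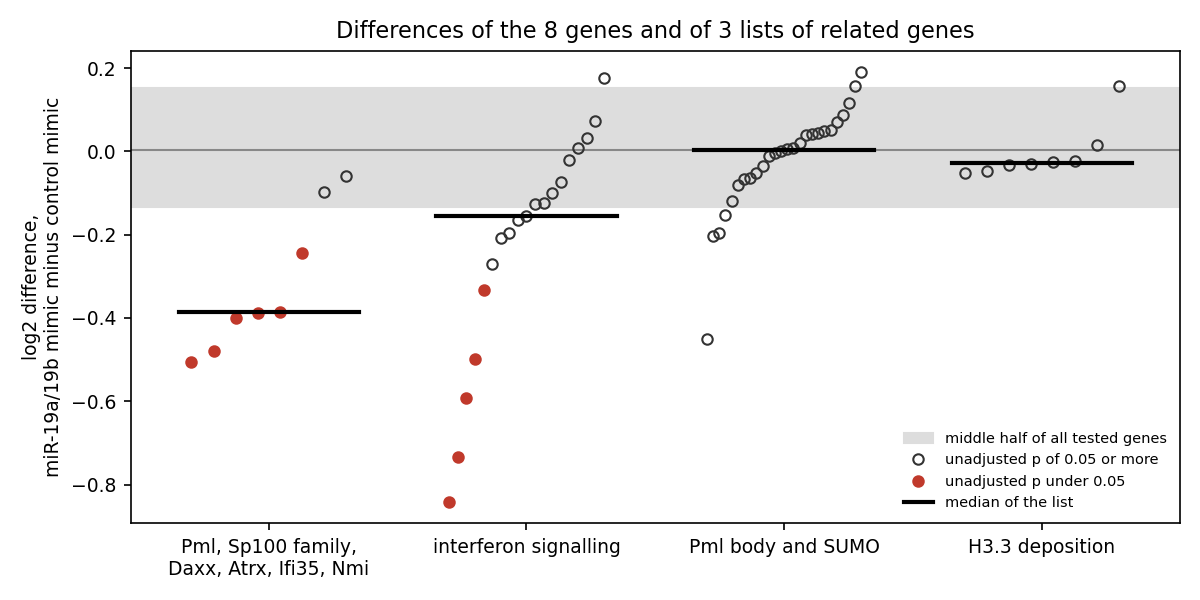
Log2 differences (miR-19a/19b mimic minus control mimic) of single genes in 4 groups, with filled points at an unadjusted limma p-value under 0.05, black bars at the medians and a grey band between the quartiles of all tested genes (-0.13 to 0.15). The medians are -0.39 for the 8 genes, -0.15 for interferon signalling, 0.00 for Pml body and SUMO genes and -0.03 for H3.3 deposition.

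The other genes of the bodies and of SUMO conjugation were not lower as a group. In a list of 26 that holds the SUMO genes, their conjugating and removing enzymes and further proteins found in the bodies, the median log2 difference was 0.00, with 12 genes below and 14 above 0. In limma, 0 of the 26 reached an unadjusted p-value under 0.05. The smallest p-values were those of Isg20, an interferon-induced exonuclease, and Senp5, a SUMO protease. Isg20 had 478.6, 411.8 and 493.3 normalized counts in control mimic hearts and 238.9, 424.8 and 374.3 in miR-19a/19b mimic hearts, which overlap (log2 difference -0.45, SE 0.20, limma adjusted p = 1.0). Senp5 had a log2 difference of -0.20 (SE 0.12), with no overlap between the groups. Of 8 genes for the histone H3.3 and the other pathway that deposits it, 0 had an unadjusted p-value under 0.05, with a median log2 difference of -0.03. Asf1a (0.16, SE 0.11) and Ubn1 (-0.05, SE 0.09) had the smallest p-values there.

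Among 11608 other genes with a mean of at least 100 normalized counts, the patterns over the 6 hearts closest to that of Pml were those of Fam107b, Ms4a6b and H2-DMb1. Likeness was the root mean square difference of centred log2 values, 0.0373 for Fam107b, 0.0386 for Ms4a6b and 0.0467 for H2-DMb1. In Ms4a6b, a membrane protein gene of leukocytes, the counts were 1913, 2493 and 2329 in control mimic hearts and 1512, 1674 and 2043 in miR-19a/19b mimic hearts. Like Pml, all 3 genes overlapped between the groups through miR-19a/19b mimic replicate 3. Of the 7 other genes described here, Sp140 was closest to Pml (0.13, rank 155) and Nmi farthest (0.256, rank 3729).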

How the data were processed

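RNA-seq was performed on poly-A RNA of 6 hearts, 3 per group. The authors removed adapter and low-quality reads, aligned with STAR (2.5.1b) and counted reads per gene with HTSeq (0.6.0). Counting by strand is not given in the sources used here. The deposited signal is a read count divided by a library size factor, and in each library 100.0% of values were whole multiples of 1 read (tolerance 0.01). The table also holds fold changes and p-values of the study's comparison, which were not used, nor was a second table that repeats part of its rows. The submitters' notes name mm9, but of the 25884 identifiers that GENCODE M21 also lists, 100.0% had its chromosome and 82.7% its exact start and end, and coordinates are therefore those of GRCm38.

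Groups were taken from the labels. The limma test (3.58.1, R 4.3.3, trended prior) used log2(normalized count + 1), which understates differences of low genes. Gene lengths are other deposited values, in bases. The members and lists were chosen with earlier results of these data known. Named beyond the 8 genes were the 2 smallest p-values of each list and the 3 patterns nearest Pml; further names were chosen after their values were seen. An item of the interferon list is not reported here by name. Alternatives were edgeR (4.0.16) and DESeq2 (1.42.0) on recovered reads, limma-voom, other factors, filters and pseudocount, a replicate block and each heart left out. The tests were checked on simulated data. The changes simulated there were larger than the differences of the 8 genes. Counts of replicate hearts differed beyond sampling noise in every pair (chi-square divided by its degrees of freedom, 9.49 to 123).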

Additional observations from a re-analysis of the deposited data

How the results depend on the processing

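All 8 genes kept their direction in every alternative, except Atrx, whose log2 difference ranged from -0.129 to 0.001 with 1 heart left out and was above 0 without control mimic replicate 2. With all 6 hearts, the 8 alternatives called 0 of the 8 at an adjusted p-value under 0.05 and between 5 and 6 at an unadjusted one. With 1 heart left out these counts ranged from 0 to 3 and from 1 to 6, the highest of both without miR-19a/19b mimic replicate 3 and the lowest of the second without replicate 1. Over all genes, 0 lower and 0 higher at the adjusted threshold became 28 and 1 with DESeq2, and ranged from 0 to 164 and from 0 to 383 with 1 heart left out. At the unadjusted threshold 555 were lower and 293 higher; higher genes were 177 with DESeq2, 466 with no filter and 147 with at least 10 reads in every heart. With 1 heart left out, there were 369 to 1289 lower genes and 208 to 1778 higher ones, the largest numbers of both without miR-19a/19b mimic replicate 3. The cause was not tested. With the replicate number as a block, 5 of the 8 had an unadjusted p-value under 0.05, without Daxx, and 434 of all genes were lower at it. Deviations of same-numbered hearts correlated at -0.01, -0.02 and -0.12. Those of differently numbered hearts ranged from -0.103 to 0.116, so this check cannot tell whether same-numbered hearts were paired. An exact permutation test of 3 hearts against 3 cannot go below p = 0.1.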
